A study of Mus musculus with 7 samples.

Results

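The mouse microRNAs mmu-miR-204 and mmu-miR-211 were followed across every array of a study of megabladder kidneys. They were taken by name from the array's feature files, and they are 2 of the 611 mouse microRNAs on that array. Megabladder mice carry a mutation that leaves the bladder with a defect of its smooth muscle wall, and urine drains poorly from it. The groups were 4 wild-type (mgb+/+) and 3 homozygous mutant (mgb-/-) mice, and the labels call the mutant kidneys obstructed. All were males with a labelled age of 4 weeks (3.5 to 4 weeks in the protocol), and no treatment, strain or further allele is given in the labels. Total RNA of each frozen whole kidney was labelled with Cy3 and read on 1 array, with each array named for a separate mouse. Mutant mouse 1 was not analysed here, although the series counts 4 mutants. Because whole kidneys were measured, fewer cells of a type and less RNA per cell cannot be told apart.

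Both microRNAs are short RNAs that guide the silencing complex to messenger RNAs through a seed near their 5′ end, so that microRNAs with one seed can share targets. miR-204 is made from an intron of Trpm3 and miR-211 from an intron of Trpm1, genes for related cation channels. miR-204 is known from kidney tubule epithelium, retinal pigment epithelium and choroid plexus, and miR-211 is best known from melanocytes. In the RefSeq tables for GRCm38.p6, both members were matched by name to the 5p arm, since the array uses older names without an arm. There, miR-204-5p lies at chr19:22750610-22750631 on the plus strand within the bounds of Trpm3, and miR-211-5p at chr7:64205831-64205852 on the plus strand within those of Trpm1. The mature sequences are shown because the pair is nearly identical, with the seed (bases 2 to 8) in capitals:
miR-204-5p: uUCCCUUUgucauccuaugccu
miR-211-5p: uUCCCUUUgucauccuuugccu

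The pair shares 21 of 22 bases, and the only difference is A17U (miR-204 base first, counted from the 5′ end), which lies outside the seed. Among 1679 mature mouse microRNAs in the RefSeq table, 3 carry this seed, the third being miR-7670-3p. Outside the pair, no mature sequence in that table matched either member at more than 13 of 22 positions when aligned from the first base. The precursors differ far more in length than the arms do in sequence. The hairpins are shown with the 5p arm in capitals:
Mir204: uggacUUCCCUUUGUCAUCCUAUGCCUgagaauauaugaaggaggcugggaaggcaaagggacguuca
Mir211: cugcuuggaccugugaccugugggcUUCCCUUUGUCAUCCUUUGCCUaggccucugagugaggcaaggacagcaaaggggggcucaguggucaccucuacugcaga

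The Mir204 hairpin has 68 bases and the Mir211 hairpin 106. No other arm of either precursor has a name on this array. miR-204 had 2 probes and miR-211 had 4, each microRNA with 20 spots per array. The probes of one microRNA read the same molecule and are not replicates of a genotype. Probe sequences were not used here, so how well each probe tells A17U apart was not tested.

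Each array found 190 to 210 mouse microRNAs above background, with 348.1 to 495.8 scanner units at the 75th percentile of shared detected probes in wild-type and 223.5 to 333.4 in megabladder arrays. Signals were divided by that percentile, brought to a common scale, and raised to a floor of 11.4 units before the log2 step. Of 15 listed tubule microRNAs, 13 were above background on all 7 arrays, as in kidney tissue, and miR-215 and miR-146b on none. Slide row 1 held every wild-type array and row 2 every megabladder array, so row and genotype cannot be told apart. On the first principal component, which held 70.8% of the variance, the megabladder mice scored -4.10 to -3.58, below every wild-type mouse. Wild-type mice 1 and 2 had -1.85 and -0.99. Wild-type mice 3 and 4 stood apart from the rest, at 7.22 and 6.92. Differences of miR-204, its closest microRNAs and the lists are therefore also given without them.

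miR-204 was present in every kidney, and its level differed more among the wild-type mice than between the genotypes. The brighter signal of wild-type mice 1 and 2 lay within the range of the mutants, while wild-type mice 3 and 4 stood lower by about the same amount with both probes. Probe A_54_P2396 gave scaled signals of 92.8, 109, 51.0 and 50.5 units in wild-type mice 1, 2, 3 and 4. In megabladder mice 2, 3 and 4 it gave 99.9, 121 and 82.5 units. The lowest 2 values are both wild-type, the highest is a mutant, and the groups overlap. All 69 of its spots used (40 wild-type, 29 megabladder) were well above background.

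The second probe, A_54_P2397, read 21.1, 22.9, 10.1 and 9.11 units in the wild-type mice in the same order. Its megabladder signals were 22.2, 25.1 and 21.0 units. Wild-type mice 3 and 4 fell below the floor and were set to it. In mouse 3 all 9 spots used were well above background, so a detected value was raised, whereas in mouse 4 only 1 of 9 was. With this probe too the mutants overlap wild-type mice 1 and 2.

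**Figure D1:**
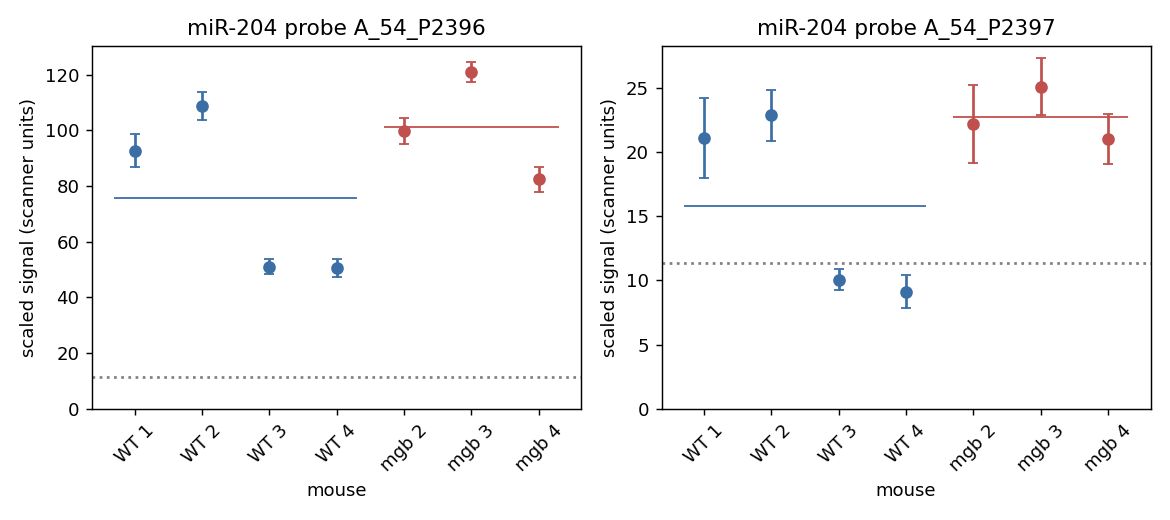
Scaled signal of the 2 miR-204 probes (vertical axis, scanner units, from 0) in 4 wild-type (WT, blue) and 3 megabladder (mgb, red) mice. Points are means over the spots of an array, bars are the SD between spots, solid lines are group means and the dotted line is the floor of 11.4 units. WT 3 and WT 4 lie at 51.0 and 50.5 units with A_54_P2396, below all other mice.

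The coefficient of variation between spots of A_54_P2396 was 2.95% to 6.32% over the 7 arrays, whereas that between mice was 39.1% in wild-type and 19.1% in megabladder kidneys. The software's own total signal for miR-204, which is not scaled between arrays, ran 82.3, 107, 56.1 and 38.7 units in wild-type mice 1 to 4, each with an error of 3.84 to 9.36 units. It read 62.0, 90.7 and 43.8 units in megabladder mice 2, 3 and 4, so that without scaling the mutants sat inside the wild-type range. miR-204 was called detected on all 7 arrays.

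Averaged over both probes, the log2 level of miR-204 was 5.47, 5.64, 4.59 and 4.58 in wild-type mice 1 to 4, and 5.56, 5.79 and 5.38 in megabladder mice 2 to 4. The means were 5.07 ± 0.56 (SD, n = 4) and 5.57 ± 0.20 (SD, n = 3). The log2 difference, megabladder minus wild-type, was 0.50 with a 95% interval of -0.20 to 1.21, or 1.42-fold (0.871 to 2.31). It did not pass in limma (adjusted p = 0.403 over 213 microRNAs). In that fit 3.29% of microRNAs passed, 6 higher and 1 lower, and 34 had a more positive difference than miR-204. The 3 mutant values lay wholly above or below the 4 wild-type values for 22.1% of microRNAs, and miR-204 was not among them.

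The difference rested on wild-type mice 3 and 4. These had the lowest levels of all mice, so leaving them out was bound to lower the difference. It does not show which wild-type mice are typical, and leaving out wild-type mice 1 and 2 together was not tried. Without both, it was 0.0053 (95% interval -0.38 to 0.39, limma adjusted p = 0.993). Leaving out mouse 3 or mouse 4 alone gave 0.32 in each case, while leaving out wild-type mouse 2 gave 0.65 (adjusted p = 0.208). It was -0.17 when arrays were scaled by all probes and -0.075 with no scaling, where the median over all microRNAs also fell, to -0.62 and -0.50. Relative to that median miR-204 had 0.45 and 0.43 there, and 0.42 in the values reported above. In the authors' deposited table, miR-204 read 94, 117, 70 and 73 in wild-type mice 1 to 4 and 91, 108 and 81 in megabladder mice 2 to 4, a log2 difference of 0.10 from those values.

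**Figure D2:**
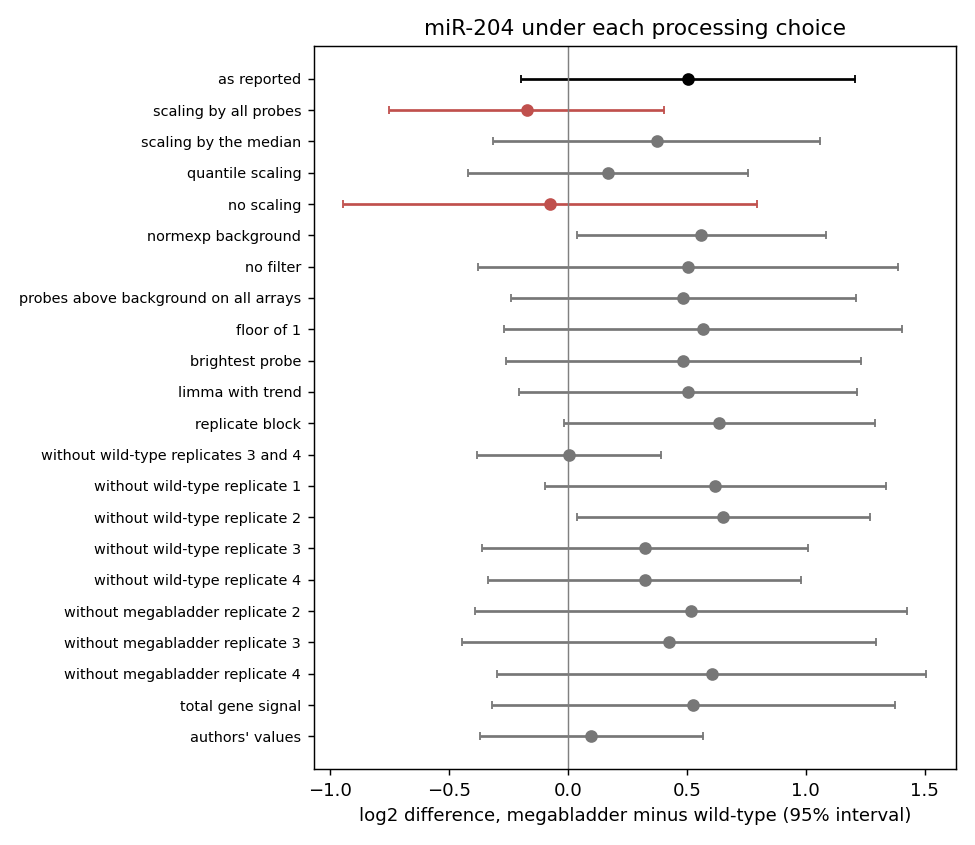
Log2 difference of miR-204 between genotypes (horizontal axis, megabladder minus wild-type, with 95% intervals from limma) as reported (black) and under 21 other choices, red where negative. The value falls to 0.0053 without wild-type mice 3 and 4 and is negative, at -0.17 and -0.075, with scaling by all probes and with no scaling, which shift the median of all microRNAs to -0.62 and -0.50.

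Probe by probe, A_54_P2396 had a genotype difference of 0.49 (95% interval -0.27 to 1.24, limma adjusted p = 0.414) and A_54_P2397 had 0.52 (-0.17 to 1.21, adjusted p = 0.337). With a floor of 1 unit, A_54_P2397 had 0.65 (limma adjusted p = 0.353). Among 404 mouse probes tested, 0% passed in limma and 96 had an unadjusted p under 0.05. With a mean-variance trend and robust variance estimation, set together, limma called 13. The groups did not overlap for 26.7% of probes, neither miR-204 probe among them. Within an array, where the scaling cancels, the log2 distance between both probes was 2.14, 2.25 and 2.34 in wild-type mice 1 to 3 and 2.17, 2.27 and 1.97 in megabladder mice 2 to 4. In wild-type mouse 4, where A_54_P2397 was not well above background, the distance is not known well. It is a property of the probes and not a level. Without wild-type mice 3 and 4 the probes had -0.022 and 0.033.

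The spread of miR-204 among wild-type mice was wide for these arrays. Its SD of 0.56 log2 units compared with a median of 0.14 over all tested microRNAs, and 18 of the 212 others had a larger one. The 13 tested tubule microRNAs ranged from 0.039 to 0.16. They were brighter, with wild-type means from 6.02 (miR-30e*) to 10.33 log2 units (miR-30a) against 5.07 for miR-204. The part of signal level in the spread was not tested. Among the mutants the SD of miR-204, 0.20, matched the median of 0.20. Mice with the same number shared a slide column, and with A_54_P2396 column 2 held 109 (wild-type) and 99.9 units (megabladder), column 3 held 51.0 and 121, and column 4 held 50.5 and 82.5. The part of slide position in these values was not tested.

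The 3 microRNAs whose levels ran most like that of miR-204 over the 7 arrays were chosen by Pearson correlation. They were miR-92a, a product of a growth-associated gene cluster (r = 0.984), miR-130a (r = 0.981) and miR-669f of a repeat-rich family (r = 0.947). These are descriptions over 7 points that share one scaling per array and of which wild-type mice 3 and 4 lie apart, and 23 of 212 microRNAs had r of at least 0.9. Spearman's rho was 0.964, 0.929 and 0.50, and after subtracting each genotype's mean r was 0.982, 0.975 and 0.937. miR-92a itself ran only from 6.88 to 7.24 log2 units, and miR-130a from 8.90 to 9.67. miR-669f ranged from 3.67 to 6.09, and its 3 mutant values (6.05 to 6.09) lay above all wild-type values. The log2 differences of the 3 were 0.13, 0.27 and 1.36, and none passed in limma (adjusted p = 0.605, 0.481 and 0.214). Without wild-type mice 3 and 4 they were -0.028, -0.0089 and 0.39. The level of miR-204 correlated with the first principal component at r = -0.935 over 7 arrays. That component set wild-type mice 3 and 4 apart and also had every mutant below every wild-type mouse. Its part in the difference was not tested.

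**Figure D3:**
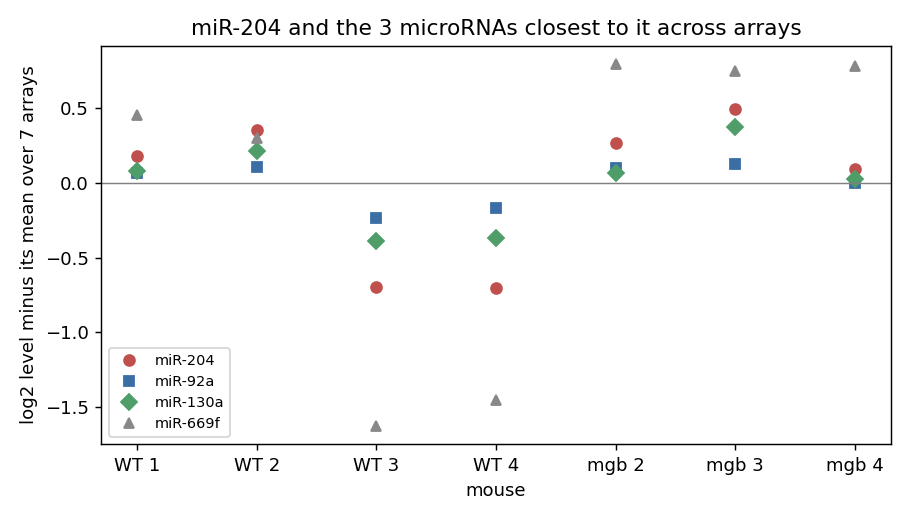
Log2 level of miR-204 and of the 3 microRNAs with the highest Pearson correlation to it, each minus its mean over 7 arrays (vertical axis), by mouse. All 4 are lowest in WT 3 and WT 4, and miR-669f moves most, from 3.67 to 6.09 log2 units.

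miR-211 was not well above background in any wild-type kidney. None of its 77 wild-type spots used passed the scanner's test for being well above background, against 11 of 60 megabladder spots. At the level of a probe on an array, where at least 0.5 of the spots had to pass, 0 of 16 wild-type and 1 of 12 megabladder readings did. That one was A_54_P1468 in megabladder mouse 4. No miR-211 probe was therefore tested, and the values below are a description.

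The 4 probes averaged 4.99, 6.51, 1.32 and 1.33 scaled units in wild-type mice 1 to 4 and 9.59, 9.85 and 11.7 in megabladder mice 2 to 4. The mutants were all higher, and wild-type mice 3 and 4 were again the lowest. A_54_P1468 read 4.86, 7.88, 1.55 and 2.35 units in the wild-type mice and 11.2, 11.8 and 13.8 in the mutants. A_54_P1469 read 7.23, 7.22, 2.31 and 2.35 units in wild-type and 10.8, 12.0 and 11.7 in megabladder mice. Both probes passed the floor in mutants 3 and 4 and in no wild-type mouse.

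A_54_P1467 had 5.02, 7.40, 0.958 and 0.623 units in wild-type mice and 7.53, 8.30 and 12.6 in the mutants, where wild-type mouse 2 came near megabladder mouse 2. A_54_P1466 had 2.87, 3.55, 0.473 and -0.0043 units in wild-type mice and 8.80, 7.31 and 8.80 in the mutants, always under the floor. Most of these readings are thus under the floor, which is not a limit of detection. The lowest detected probe read 6.90 to 10.3 units on wild-type arrays and 12.0 to 13.8 on megabladder arrays. The order of the readings is uncertain, as nearly all were not well above background. Readings at the floor numbered 16 of 16 in wild-type and 7 of 12 in megabladder mice.

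**Figure D4:**
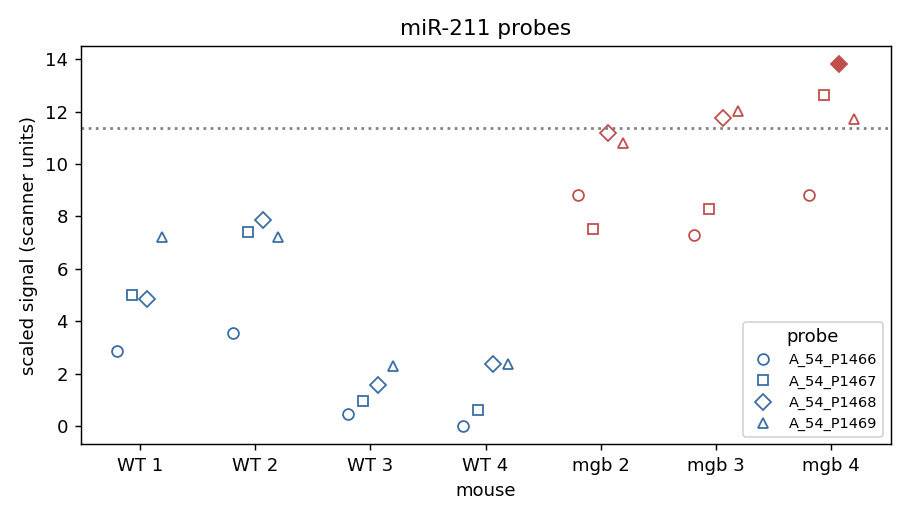
Scaled signal of the 4 miR-211 probes (vertical axis, scanner units) in 4 wild-type (WT, blue) and 3 megabladder (mgb, red) mice. A filled marker is a probe well above background on that array (1 of 28 readings, A_54_P1468 in mgb 4), open markers are not, and the dotted line is the floor of 11.4 units, which 5 readings, all megabladder, exceed.

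With all 4 probes, every mutant signal lay above every wild-type signal, which held for 8.78% of the 1355 mouse probes below the filter. This order is a description of readings nearly all not well above background, and for A_54_P1467 it rests on 7.53 against 7.40 units. All 4 also had spots well above background in mutants alone, as did 2.36% of those probes. The 4 probes are designed for one microRNA, so they are not 4 observations. Without scaling, the order held for 1 of the 4 probes, where 4.94% of such probes showed it. Unscaled, the mean over the probes was 5.65, 8.28, 1.89 and 1.34 units in wild-type and 7.45, 9.48 and 7.58 units in megabladder mice, so that wild-type mouse 2 lay above mutants 2 and 4. Scaling by all probes, by the median or by quantiles kept the mutants' mean above the wild-type mean in every mouse. The nearest values were 7.23 (megabladder mouse 2) against 6.64 units (wild-type mouse 2) with all probes and 7.33 against 6.80 units with quantiles. Scaling factors were lower in megabladder than in wild-type arrays, which raises scaled mutant signals, and their part in the order was not tested.

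For A_54_P1468, the probe seen in a mutant, 1 of 3 megabladder readings was well above background and 2 were not, so no fold between genotypes is given.

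The scanner software, which sums spots by its own rule, called miR-211 detected in wild-type mice 1 and 2 and in all 3 mutants. Its total signals were 2.61, 9.13, 0.1 and 0.1 units in wild-type mice 1 to 4, where 0.1 is the value it writes for no detection, and 7.82, 7.37 and 8.08 in megabladder mice 2 to 4. Wild-type mouse 2 was the highest of all 7. After scaling, a limma fit on these totals gave a log2 difference of 1.54 (95% interval 0.52 to 2.56, adjusted p = 0.121), which did not pass. Wild-type mice 1, 3 and 4 were at the floor of 2.59 units in that fit, so the size of the difference depends on the floor. The authors' deposited table read 21, 28, 20 and 20 in wild-type and 28, 26 and 28 in megabladder mice, with 20 the lowest value it holds, so miR-211 stood at its bottom in wild-type mice 3 and 4.

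Because the pair differs at 1 base, the readings of both were set side by side. The mean miR-211 signal and the miR-204 level, turned back from log2 to signal units, correlated at r = 0.785 over the 7 arrays. The values of an array share one scaling factor. Both were lowest in wild-type mice 3 and 4. Among the mutants, mouse 4 had the lowest miR-204 (82.5 units with A_54_P2396) and the highest miR-211 (11.7 units), but with no scaling, with all probes or with quantiles mouse 3 had the highest miR-211. Whether miR-204 RNA adds to the miR-211 spots was not tested.

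The tubule microRNAs other than miR-204 had small differences in either direction. Of 13 tested members of the tubule list besides miR-204, 0 passed in limma, 5 differences were positive and 8 negative, and the median was -0.064, beside 0.087 over all 213 microRNAs. None had a difference as large as the 0.50 of miR-204. miR-30d, of the miR-30 family abundant in tubules, had 0.26 (adjusted p = 0.214) with its mutant values above all wild-type values. miR-30b had -0.13 (adjusted p = 0.519). The summed level of the list was 12.55 to 12.60 log2 units in wild-type and 12.50 to 12.62 in megabladder mice, so wild-type mice 3 and 4 did not stand apart in it.

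The 5 microRNAs of epithelial identity, the miR-200 family, had differences from -0.14 to 0.069, with miR-200a at -0.14 and miR-200b at -0.12, a median of 0.0031 and none past the test. Of 12 tested microRNAs held to repress matrix genes, 11 had negative differences, beside 68 of all 213, and the median was -0.25. All 12 belong to the let-7 and miR-29 families, so they are not 12 separate observations. One passed, let-7e, which fell by 0.57 (adjusted p = 0.0315), while let-7f had -0.30 (adjusted p = 0.214). The let-7e difference was negative under all 21 alternatives but passed under 8 (adjusted p 0.00523 to 0.218), and not without wild-type mice 3 and 4 (-0.64, adjusted p = 0.218). In the list of retina and pigment cells, chosen for the tissues in which the pair is best known, 4 of 9 were tested and none passed. Its median was 0.036, with miR-125b-5p at 0.045 and miR-183 at 0.11. Of the untested members, no array had miR-184, miR-124 or miR-9 well above background, while miR-9* was so on 2 arrays and miR-182 on 1.

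Markers of other kidney cells were read the same way. The 5 stromal microRNAs all had positive differences, as did 145 of all 213, with a median of 0.39 and none past the test. miR-199a-5p had 0.39 (adjusted p = 0.210) and miR-199b* had 0.59 (adjusted p = 0.214), the one stromal value above that of miR-204, and the summed level was 11.02 to 11.49 in wild-type and 11.26 to 11.42 in megabladder mice. The 3 urothelial ones had a median of 0.44 and none passed. Of these, miR-205 had 1.23 (adjusted p = 0.0712) against wild-type values all at the floor and miR-31 had 0.44 (adjusted p = 0.214), with a summed level of 5.88 to 6.00 in wild-type and 5.90 to 6.85 in megabladder mice. In both lists these are values beside the miR-204 difference, and their part in it was not tested.

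Smooth muscle (2 of 5 tested), leukocyte (4 of 6), erythroid (3 of 3) and endothelial (5 of 5) lists had medians of 0.16, -0.15, 0.11 and -0.065 with none past the test. The members of smallest p were miR-145 (0.24) and miR-143 (0.091), miR-155 (-0.47) and miR-146a (-0.15), miR-486 (0.32) and miR-144 (0.11), and miR-126-5p (-0.23) and miR-126-3p (-0.062). Their summed levels overlapped between genotypes, at 7.23 to 7.57 against 7.37 to 7.69, 7.26 to 7.65 against 7.12 to 7.65, 11.06 to 11.46 against 10.93 to 11.86, and 10.78 to 10.84 against 10.58 to 10.88 log2 units, wild-type first. The smooth muscle, erythroid and endothelial sums are mostly miR-143, miR-451 and miR-126-3p, with wild-type means of 7.23, 11.22 and 10.60. Of the muscle microRNAs, miR-1 and miR-133b were well above background on 2 arrays each and miR-133a on none. Without wild-type mice 3 and 4 no list member passed (limma; 30 of all 203 tested at an unadjusted p under 0.05). The list medians were then -0.090 (tubule), -0.014 (epithelial identity), -0.11 (matrix repression), 0.25 (retina and pigment cells) and 0.26 (stroma). They were 0.069 (smooth muscle), -0.010 (leukocytes), 0.14 (erythroid cells) and -0.13 (endothelium), beside 0.024 over all tested. The urothelial median was 0.44, but over 2 microRNAs at -0.13 and 1.02, as miR-31 was no longer tested.

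**Figure D5:**
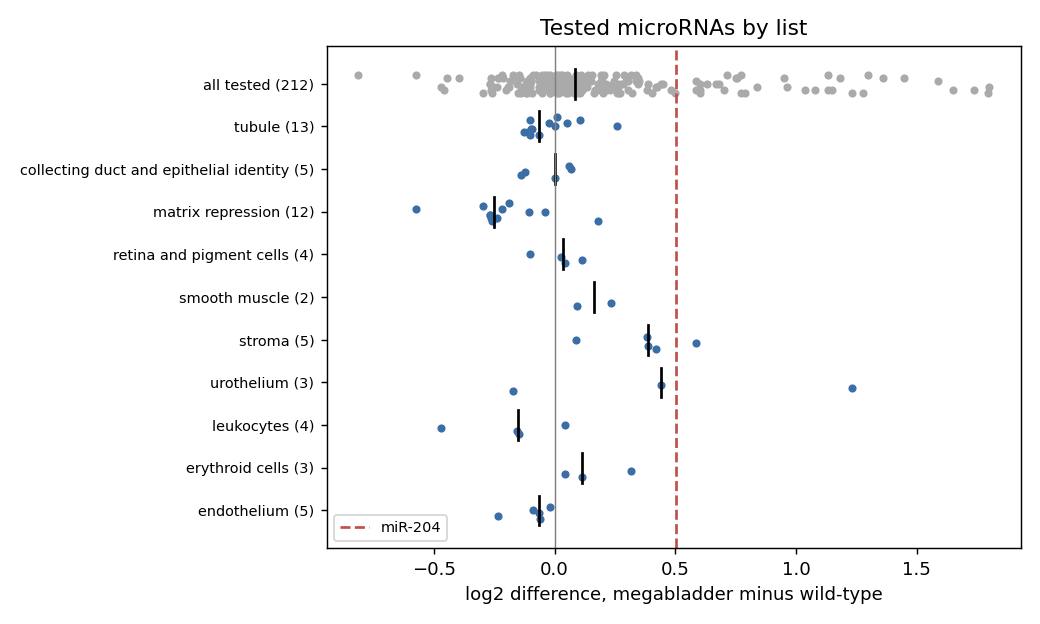
Log2 difference between genotypes (horizontal axis, megabladder minus wild-type) of each tested microRNA, for all tested ones except miR-204 (grey, 212) and by list (blue, number tested in brackets), with black bars for medians and a dashed red line for miR-204 at 0.50. No member of the tubule list reaches that line, and 1 stromal and 1 urothelial microRNA pass it.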

How the data were processed

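The authors labelled 100 ng of RNA per kidney, per the labels' protocols. Feature Extraction 10.7.3.1 by Agilent made the spot intensity values, per the file headers. The deposited intensity columns are not scaled between arrays. The scaling of the authors' deposited value table, also of intensity values, is unknown. It served as an alternative only, for 191 microRNAs ordered before its names stop matching the scanner signals.

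Control spots and outlier spots were left out. Spots of a probe were averaged, then divided by the 75th percentile that the 292 probes detected on all 7 arrays had on each array. As floor served the 1st percentile of detected probes (median of the 7 arrays). A microRNA's log2 level is the mean of its probes above background on at least 3 arrays. The test of genotype was limma's (version 3.58.1, R 4.3.3; lmFit, eBayes), adjusted by Benjamini-Hochberg over all microRNAs or all probes tested, and 0.05 as threshold. The fits were tested on simulated data.

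Named microRNAs are both members, the 3 with the highest Pearson correlation to miR-204, and up to 2 of smallest p in each list. The members and lists were chosen with earlier results of these data known. Alternatives covered scaling, signal, background, filter, floor, probes, test, block and arrays. Differences of the lists without wild-type mice 3 and 4, and let-7e under every alternative, were chosen after seeing the data. Normexp used the median spot signal, since the files hold no mean. The number of arrays limits the precision.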

Additional observations from a re-analysis of the deposited data

Results flagged for a closer look

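Over the 4 wild-type mice, miR-31 of the urothelial list had 1 value apart from the others, with a gap of 1 times the whole range. Wild-type mouse 3 stood at 3.63 log2 units while mice 1, 2 and 4 were all at the floor of 3.51. With 3 values tied at the floor, the remaining value gives this gap wherever it lies above it, so it comes from the floor. It was the only such value among 31 levels and signals examined, where chance gives about 1 in 20. No value of miR-204 or miR-211 stood apart by this measure. It looks for 1 value apart, so it cannot show values that lie low together, as in wild-type mice 3 and 4.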

How the results depend on the processing

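miR-204 passed under none of 21 alternatives (limma adjusted p 0.179 to 0.993), and 19 gave a positive difference. The negative values were -0.17 (all probes) and -0.075 (unscaled). Relative to the median of all microRNAs it was 0.31 to 0.45 by 5 scalings, where that median ran from -0.62 (all probes) to 0.087, and 0.14 with normexp. A_54_P2396 turned to -0.25 (all probes), -0.13 (unscaled) and -0.022 (without wild-type mice 3 and 4), and A_54_P2397 to -0.093 and -0.023 (all probes, unscaled). The cause was not tested. With single arrays left out miR-204 had 0.32 to 0.65. The floored difference of miR-211, 0.049, became 0.69 with normexp, 1.86 with a floor of 1, 1.54 with total gene signal and 0.31 in the authors' deposited values.

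The count of 7 microRNAs was 0 with all probes, quantiles, normexp, no filter or a floor of 1 (limma; 107, 45, 53, 40 and 30 at an unadjusted p under 0.05), 2 with the median, 69 unscaled, 4 with probes detected on all arrays, 28 with the replicate block, 1 without wild-type mice 3 and 4, 2 with total gene signal and 1 in the authors' values, and 0 to 11 with single arrays left out. The count of 0 probes was 3 with the median, 89 unscaled, 7 with detection on all arrays, and 13 with the trend and robust variance estimation together. It was 1 without wild-type mice 3 and 4, and 0 to 20 with single arrays left out. Same-numbered mice deviated from their genotype means with correlations of -0.21, 0.0066 and 0.21, so the numbers were not taken to pair them, although they also share a slide column. With the replicate block miR-204 had 0.64 (adjusted p = 0.259) and no call of the members changed. Low signal over background limits miR-211.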
